A study of Drosophila melanogaster with 4 samples.

Results

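The long stretches of the large chromosome arms that hold no H3K79me3 cluster were 399 of the 6766 gaps between clusters, or 5.90%. H3K79me3 is trimethylation of lysine 79 of histone H3, and a cluster is a region that the authors listed as enriched for it. The stretches were chosen by these measured values: the clusters of 3 deposited lists were merged on the arms X, 2L, 2R, 3L and 3R, and every gap of 50 kb or more between the resulting 6761 merged regions was taken, gaps at arm ends included. Their length and the lack of clusters in them therefore follow from the choice, and they are given as a description with no test.

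The series mapped the mark by chromatin immunoprecipitation and sequencing (ChIP-seq), with 2 ChIP libraries and 2 input libraries of head nuclei. The heads were sieved from wild-type *Drosophila melanogaster* of the strain Oregon-R (Oregon-R-modENCODE), stage Mixed Adult. The chromatin was fixed with formaldehyde and sonicated, the antibody was Abcam ab2621 lot 1, and the labels pair each input with the ChIP sample that carries its number, as background. One list holds the clusters of each ChIP library (6180 for replicate 1 and 6397 for replicate 2 on the large arms), and a combined list of the replicate set holds 6833. Separate fly collections for the replicates are not stated in the labels, so the spread between them may be technical.

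Methylation of lysine 79 is set by the enzyme Dot1, called grappa in flies, and is known mainly from the bodies of transcribed genes. Genes that a tissue does not use, and the repeat-rich chromatin next to centromeres, are usually described as poor in it. Lysine 79 lies on the surface of the nucleosome core and not on the histone tail, where most of the better-known histone marks sit.

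The absence of a cluster is not a measured absence of the mark. The lists hold no read counts, so sequencing depth cannot be read from them, and the sources used here do not give the threshold of the cluster caller. Undetermined bases, sequence in which short reads cannot be placed, and the coverage of the inputs could also leave a stretch without clusters. None of these was examined, and their part in the lengths and positions below was not tested. Genes and DNA sequence of the stretches are not analysed here, because the coordinates are on FlyBase release 5 and the only gene table at hand follows release 6.

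The 399 stretches held 39.9 Mb, which was 33.6% of the 119 Mb of the large arms. All gaps of any length together made up 65.6% of the arms, and the stretches were 51.2% of that unmarked sequence. The median stretch was 80.03 kb long, the middle 50% lay between 60.4 and 115 kb, and the longest reached 505 kb. Most gaps were far shorter: 2191 were under 1 kb and held 1.12% of the unmarked bases, and 3035 of 1 to 10 kb held 13.9%. The 1141 gaps of 10 to 50 kb, the class just below the stretches, held 26.4 Mb. Among the stretches, 260 were shorter than 100 kb and summed to 17.8 Mb, 113 were of 100 to 200 kb and summed to 14.8 Mb, and 26 of 200 kb or more summed to 7.35 Mb. The length was thus spread over many stretches: the 119 longest made up 50% of it, and the 10 longest 9.10%.

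The limit of 50 kb did not fall at a break in the lengths. Just inside it lay 3L:20711139-20761142 with 50004 bases, 2L:3302452-3352688 with 50237 bases and 2R:8964727-9015070 with 50344 bases. Just outside it lay 3R:9955729-10005710 with 49982 bases, 2L:22961670-23011544 with 49875 bases and 3R:27501570-27551425 with 49856 bases. The gap of 49875 bases is the centromere-side end of 2L, so a slightly lower limit would have counted it as a stretch. Only 2 stretches touched an arm end, both on the telomere side: 67.2 kb of 2L and 132 kb of 3L.

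Every large arm held stretches, at 2.70 to 3.91 per Mb. Their share was 26.5% of 2R, 32.3% of 3R, 34.8% of 3L, 35.9% of X and 37.9% of 2L. Arm 2R thus had the lowest share, with 57 stretches that made up 14.0% of all stretch length on 17.8% of the arm sequence, and 2L the highest, with 90 stretches that made up 21.8% of the length on 19.3% of the sequence. The same rule applied to each replicate list alone gave 34.6% and 33.3% of 2R in stretches (34.0% ± 0.93, SD, n = 2) and 44.5% and 44.8% of 2L (44.6% ± 0.21). The other arms lay between them, with 43.1% ± 1.1 of X, 41.9% ± 1.4 of 3L and 38.4% ± 0.22 of 3R. The spread between replicates was smaller than the distance between 2R and each other arm, whereas X and 3L differed by about as much as their replicates. Arms 2L and X also lay close in replicate 1, with 44.5% and 43.9%, but less so in replicate 2, with 44.8% and 42.3%. Arm 2R kept the lowest share under all 13 alternative settings, but 2L had the highest in 11 of them. Some of the 13 hardly changed the set: 26.5% of 2R lay in stretches with the combined list alone and with either replicate left out. With clusters at or above the median score, 2R was close to X, with 43.4% against 44.9%. With a limit of 75 kb the share was 30.5% of X and 26.1% of 2L, and with 100 kb it was 23.4% of X, 20.95% of 3L and 20.1% of 2L. Stretches of X were longer than those of the other arms, with a median of 96.7 kb against 75.3 to 78.0 kb. Those of 200 kb or more were found on every arm, with 7 stretches on X, 6 on 3L, 5 each on 2L and 2R and 3 on 3R.

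The stretches were densest at the end of each arm sequence next to the centromere, with 3R as the exception. The centromere-side end is the high-coordinate end of X, 2L and 3L and the low-coordinate end of 2R and 3R. The centromere itself and the separate heterochromatin sequences lie beyond it. In the 2 Mb at that end, 60.1% of the sequence lay in stretches, against 31.1% of the rest of the arms. With the lists of each replicate alone the shares were 63.2% and 64.8% there (64.0% ± 1.2, SD, n = 2) and 38.9% and 37.7% in the rest (38.3% ± 0.86). These 2 Mb are 8.40% of the arm sequence and held 15.0% of the stretch length. The share was 71.7% in the first Mb and 48.5% in the next, and from 2 to 4 Mb it was 32.0%, close to the 28.8% to 35.6% of all classes farther out.

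Single arms differed in how much of this dense zone of 2 Mb lay in stretches. On 3L, 86.1% of the 2 Mb lay in stretches, against 30.2% of the rest of that arm. The values were 67.8% and 32.8% on X, 63.5% and 35.5% on 2L, and 57.5% and 23.3% on 2R. On 3R the order was turned, with 25.5% in the 2 Mb against 32.8% in the rest: 34.0% of the first Mb and 16.97% of the next lay in stretches. The share on 3R then reached 63.4% between 2 and 4 Mb. The opposite end of the arms showed no such excess, since 28.3% of the 2 Mb on the telomere side lay in stretches, from 22.2% on 2R to 37.8% on 2L. Some arms also had a raised share in their middle part. Between 8 and 12 Mb from the centromere-side end, 50.7% of 3L and 47.4% of 2L lay in stretches. The share there was 37.8% on 3R, 27.5% on X and 14.8% on 2R.

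**Figure D1:**
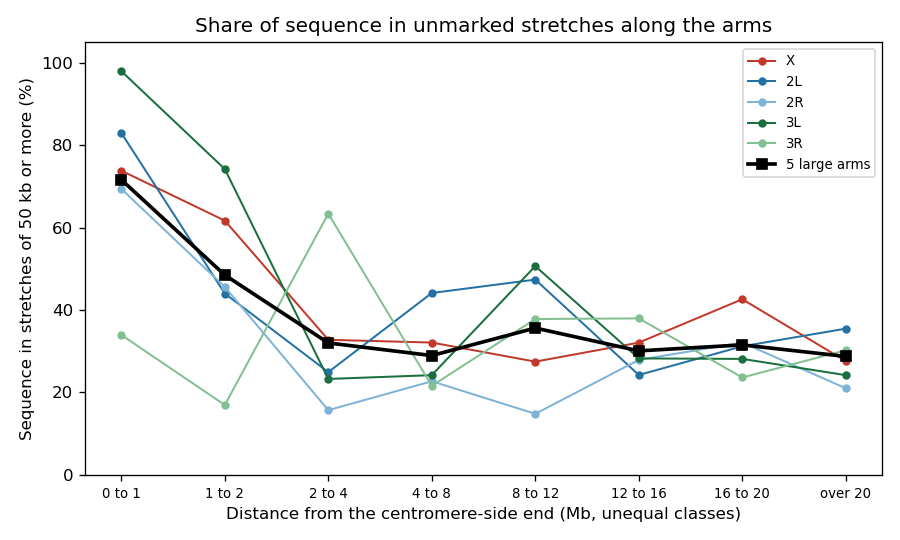
Share of the sequence that lies in unmarked stretches of 50 kb or more (percent, vertical axis) by distance from the centromere-side end of the arm (Mb, unequal classes, horizontal axis), for each of the 5 large arms and for all of them together (black squares). The pooled share falls from 71.7% in the first Mb to 32.0% between 2 and 4 Mb, while 3R starts at 34.0% and peaks at 63.4% between 2 and 4 Mb.

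Long stretches were gathered near the centromere side but not limited to it. The 40 stretches that reached into the 2 Mb at the centromere side had a median length of 103 kb, against 77.3 kb for the other 359. The median was less raised in the Mb nearest the end. By midpoint, it was 81.6 kb for 23 stretches in the first Mb and 124 kb for 17 in the next. The 23 nonetheless included the longest stretch of all, with 505 kb. Of the 26 stretches of 200 kb or more, 11 reached into the 2 Mb at the centromere side (42.3%), against 10.0% of all stretches. The others were spread over the arms, and 7 of the 26 lay more than 10 Mb from the centromere-side end. By whole windows of 1 Mb from the first base of each arm, the median share in stretches was 31.9% over 117 windows. The remainder after the last whole Mb was left out. On X, 2L and 3L it is the centromere-side end, and on 3L it holds the longest stretch. The fullest whole window, 3L from 23 to 24 Mb, held 93.0% and the next, 2L from 22 to 23 Mb, held 84.2%. The third, with 71.5%, was 3R from 2 to 3 Mb. At the other extreme, 3 windows held no stretch at all: 2R from 3 to 4 Mb, 3R from 5 to 6 Mb and 3R from 20 to 21 Mb.

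**Figure D2:**
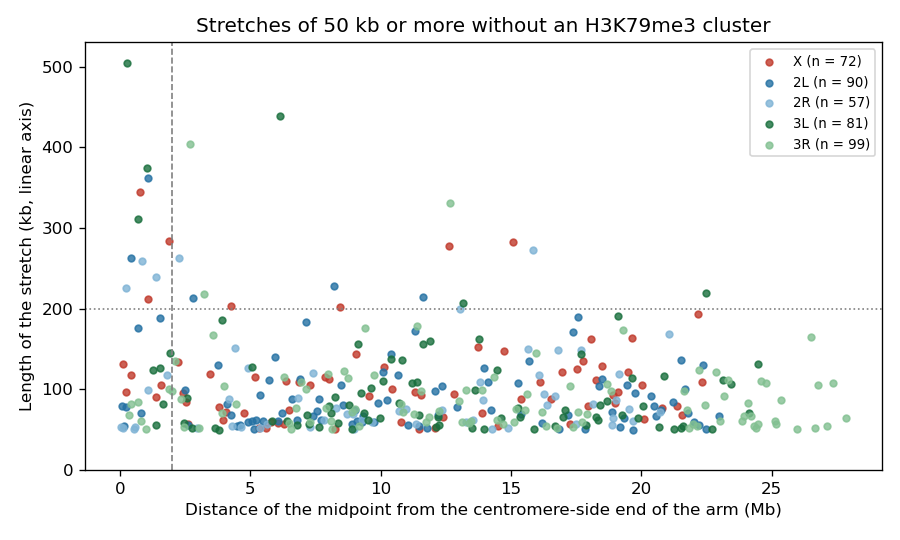
Length of each of the 399 stretches (kb, linear vertical axis) against the distance of its midpoint from the centromere-side end of its arm (Mb), coloured by arm. The dashed line marks 2 Mb and the dotted line 200 kb: the 26 stretches on or above the dotted line include 11 that reach into the 2 Mb at the centromere side and others out to the middle and far part of the arms.

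The longest stretch, 3L:24025836-24530402, covered 505 kb and ended 0.0132 Mb from the centromere-side end of 3L. Around it, the sequence without a cluster measured 505.91 kb in replicate 1 and 505.38 kb in replicate 2, so both libraries placed its borders within 1 kb of each other. It was the last of 5 stretches in a row. With 3L:23143799-23199938 (56.1 kb), 3L:23202582-23326172 (124 kb), 3L:23334169-23708068 (374 kb) and 3L:23710415-24021591 (311 kb) it formed a group of 1387 kb, of which 98.8% lay in stretches. Clusters of replicate 1 covered 1.02% of that group and those of replicate 2 covered 0.878%. The 4 marked islands between its stretches were 2346 to 7996 bases wide, and 3 of them held clusters in both replicates.

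The second longest stretch, 3L:18173921-18612192, had 438 kb and lay 5.93 Mb from the centromere-side end, outside the dense zone. It measured 440 kb in replicate 1 and 442 kb in replicate 2. Its left border was set by a cluster of 1014 bases that is in the combined list and in neither replicate list. The third, 3R:2485850-2890241, had 404 kb, and 404.98 kb and 404.52 kb in the replicates. Its right neighbour was a broad cluster of 16334 bases in the combined list, whose score ranked at the 89.9th percentile of that list. The replicates differed there: the nearest cluster on the right had 15721 bases and percentile 82.6 in replicate 1, but 1905 bases and percentile 10.9 in replicate 2. This stretch closed a group of 3 that spanned 606 kb from 3R:2284735, the part of 3R where the share in stretches peaked.

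Of the next 4 in length, 3 also lay near a centromere-side end. They were 3L:23334169-23708068 of the group above, 2L:21759789-22121344 with 362 kb and X:21501566-21846055 with 344 kb. The stretch on 2L had an unmarked length of 361.71 kb in replicate 1 and 361.60 kb in replicate 2, and that on X had 344.60 and 344.59 kb. The other was 3R:12480482-12810841 with 330 kb, 12.5 Mb from the centromere side. Its unmarked length was 339 kb in replicate 1 and 336 kb in replicate 2. On the right, where a cluster of 1048 bases of the combined list alone closed it, the unmarked sequence ran on for 4862 bases in replicate 1 and 5099 in replicate 2. On the left it ran on for 3481 bases in replicate 1 and 92 in replicate 2. The 10 longest were completed by the 311 kb of 3L, by X:20396620-20680547 with 284 kb and by X:7220269-7502455 with 282 kb, which lay 14.9 Mb from the centromere-side end. The longest of 2R, 2R:15720751-15993973 with 273 kb, was also far out, at 15.7 Mb. It stood beside a cluster of 7124 bases whose score ranked at the 99.5th percentile of the combined list, and at the 99.7th and 98.9th percentiles in replicates 1 and 2.

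Closest to the centromere side after the longest stretch lay 2R:20572-74248 with 53.7 kb and X:22254119-22385219 with 131 kb. The stretch on X is an instance of a border that rests on the combined list: without it, the unmarked length around that stretch was 328 kb in replicate 1 and 321 kb in replicate 2.

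Each stretch is free of clusters in every list by the rule, so the length without a cluster around it in a replicate's own list cannot be shorter than the stretch. For a small majority of stretches it was less than 1 kb longer. The median over the 399 was 91.9 kb in replicate 1 and 90.9 kb in replicate 2, against 80.03 kb for the stretches themselves. The largest excess over a stretch was 282 kb in replicate 1 and 239 kb in replicate 2. The replicate's own unmarked length exceeded the stretch by less than 1 kb for 203 stretches (50.9%) in replicate 1 and 210 (52.6%) in replicate 2, and by more than 50 kb for 37 and 38. Between the replicates the median difference in unmarked length was 0.389 kb, and 21 stretches differed by more than 1.5 times. The 796 borders that were not arm ends had their nearest clusters of replicates 1 and 2 at positions a median of 143.5 bases apart, within 500 bases in 72.1% of cases and over 10 kb apart in 49.

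**Figure D3:**
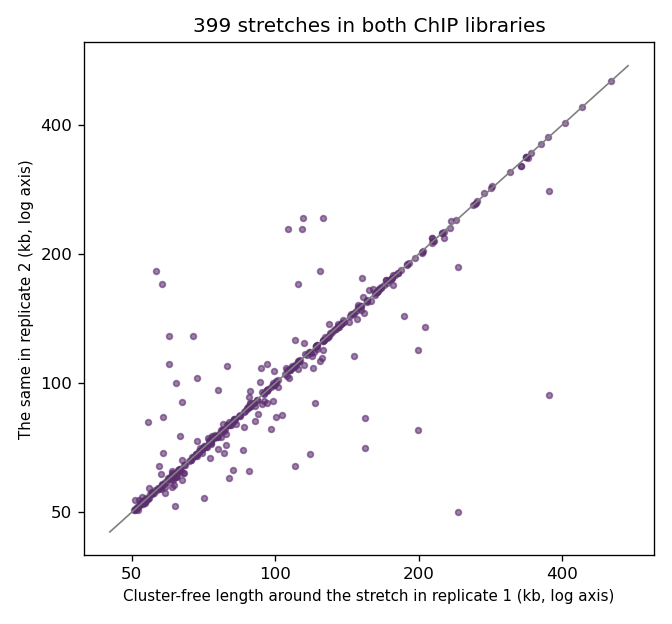
Length without a cluster around each of the 399 stretches in the list of replicate 1 (kb, log axis, horizontal) and of replicate 2 (kb, log axis, vertical), with the line of equal lengths. Most points sit on the line, with a median difference of 0.389 kb, and 21 lie more than 1.5 times apart.

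A replicate that took no part in the choice shows how far the other library shared the stretches. Replicate 1 alone gave 478 stretches with 48.7 Mb, and clusters of replicate 2 covered 0.865% of their bases, against 47.5% of the arms outside them. Of these 478, 366 (76.6%) held no whole cluster of replicate 2, 80 held 1, and 32 held 2 or more. Replicate 2 alone gave 459 stretches with 47.6 Mb, and clusters of replicate 1 covered 0.541% of them, against 46.1% outside. Of these 459, 374 (81.5%) held no whole cluster of replicate 1. Stretches with no covered base of the other replicate were fewer, 92 of the 478 (19.2%) and 126 of the 459 (27.5%), and the most that was covered in any stretch was 15.6% and 8.68%. Over both directions the cover was 0.703% ± 0.23 inside and 46.8% ± 1.0 outside (SD, n = 2). The inside value was lower in longer stretches: with stretches found in replicate 1 it was 1.35% at 50 to 100 kb, 0.583% at 100 to 200 kb and 0.289% at 200 kb or more, and with those found in replicate 2 it was 0.729%, 0.514% and 0.183%. A fixed overhang at the borders makes up a smaller share of a longer stretch, so these values do not separate length from border shifts. The clusters that did fall inside were narrow and low-ranking: 158 clusters of replicate 2 with median values of 1598 bases in width and 21.5 in score percentile, and 101 clusters of replicate 1 with 1515 bases and a percentile of 15.96. By the choice, each of these was missing from the other replicate's list. They were not compared with such unshared clusters elsewhere on the arms. Both libraries share the antibody lot, the protocol and the same genome sequence, so agreement between them does not tell an unmarked stretch from one where reads could not be placed.

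The combined list cut the unmarked sequence more finely than the replicate lists did. Taken alone it gave 399 stretches that held 33.6% of the arms, so the replicate lists changed the set very little. With the 2 replicate lists and without the combined list, the arms held 443 stretches. Of these, 376 contained a single stretch of the 399, 11 contained 2 or 3 that only the combined list kept apart, and 56 contained none. In 54 of the 56, at least 1 whole cluster of the combined list lay inside. One example is 3R:1833493-2169853, which had no cluster in either replicate over 336 kb but counted as 3 stretches because of clusters of the combined list.

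The clusters that border the stretches differed little from other clusters in width and rank. Bordering clusters of a list are here its own nearest clusters outward of the borders, at any distance. Some were far off: left of 3R:2035261-2169831 the nearest cluster of replicate 1 lay 201768 bases away. Replicate 1 had 719 bordering clusters, and their median width was 3131 bases, against 3554 in the remaining clusters of the arms. Replicate 2 had 720, with 3221.5 bases against 3446 bases. The means of these medians were 3176.25 ± 64 bases beside stretches and 3500 ± 76 bases elsewhere (SD, n = 2), so bordering clusters were narrower by more than the spread between replicates. The middle 50% of the widths in replicate 1 ran from 2080 to 5878 bases beside stretches and from 2138 to 6326 bases elsewhere. Clusters wider than 20 kb made up 2.23% and 2.50% of the bordering clusters in replicates 1 and 2, against 2.77% and 2.66% of the others. The median score percentile was 51.2 and 51.5 beside stretches, against 49.7 and 49.8 elsewhere. The score is the authors' own, on an unstated scale, and serves only to rank clusters within a list. A cluster of the other replicate overlapped 654 of the 719 bordering clusters of replicate 1 and 648 of the 720 of replicate 2, against 5027 of 5461 and 5019 of 5677 other clusters.

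In the combined list, the 752 bordering clusters measured 3385 bases at the median, against 3505 in the others, and their median score percentile was 55.1, against 49.4. Clusters wider than 20 kb made up 4.65% of them, against 4.36% of the others, the opposite order to that in the replicate lists. Clusters in neither replicate list were 16.8% of them, against 20.8% of the others. By the rule, such a cluster inside a gap under 100 kb can leave a piece too short to count as a stretch.

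Beside the longest stretches the bordering clusters were narrower still. In each list, 50 clusters bordered stretches of 200 kb or more. Their median width was 2642.5 bases in replicate 1, 2520 in replicate 2 and 2981.5 in the combined list, and none in any list was wider than 20 kb. Their median score percentile was 48.5 in replicate 1 and 49.8 in the combined list, but 36.0 in replicate 2. Clusters beside gaps of 10 to 50 kb had 3657 and 3431 bases in replicates 1 and 2, close to the clusters of the arms at large.

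**Figure D4:**
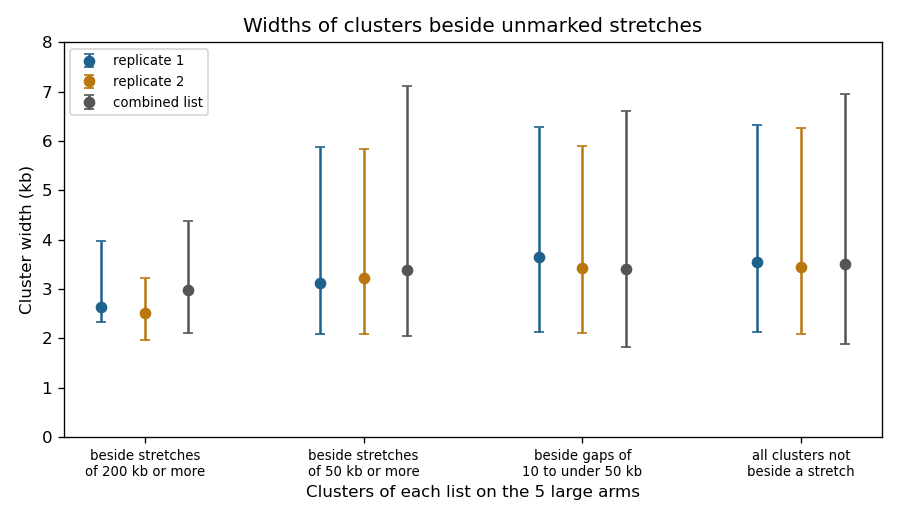
Width of clusters (kb, linear axis) beside stretches of 200 kb or more, beside all stretches, beside gaps of 10 to under 50 kb, and of all clusters not beside a stretch, for each deposited list. Clusters beside a stretch or gap are the nearest of that list outward of its borders, at any distance. Points are medians and bars the middle 50%: the clusters beside the longest stretches have medians of 2.5 to 3.0 kb in the 3 lists and all other groups 3.1 to 3.7 kb.

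Cluster cover was highest just outside the borders and fell farther out. By the rule a cluster of at least 1 list begins at each border, so this shape follows at least partly from the choice. In the first 10 kb beyond the borders, clusters covered 49.6% of the sequence in replicate 1 and 50.2% in replicate 2. The cover was 36.7% and 37.3% from 10 to 20 kb, 27.1% and 27.4% from 40 to 50 kb, and 27.7% and 28.0% from 90 to 100 kb. The large arms as a whole, stretches included, had 27.9% and 28.4%, and the arms outside the stretches had 42.0% and 42.8%. Beyond the borders of gaps of 10 to 50 kb the cover started at 48.4% and 49.4% and stayed higher, with 32.0% and 32.8% from 40 to 50 kb and 30.8% and 31.4% from 90 to 100 kb. Beyond the stretches of 200 kb or more it fell further, to 26.3% and 26.8% from 10 to 20 kb and 12.6% and 13.6% from 60 to 70 kb, and it was 20.4% and 20.5% from 90 to 100 kb. These bins include other stretches that lie nearby.

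**Figure D5:**
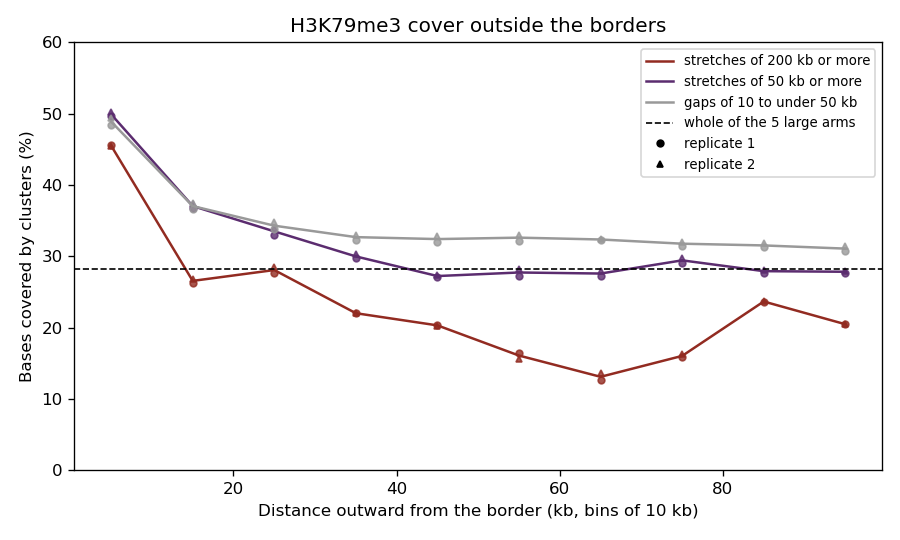
Share of bases covered by clusters (percent) in bins of 10 kb outward from the borders of stretches of 200 kb or more, of all stretches, and of gaps of 10 to under 50 kb. Circles are replicate 1, triangles replicate 2, lines their mean and the dashed line the mean cover of the large arms (28.2%): all 3 curves start between 45% and 51%, and the curve of the longest stretches falls to 12.6% and 13.6% from 60 to 70 kb.

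Stretches often followed each other closely. Over the 394 pairs of neighbours on an arm, the median distance was 110 kb, with the middle 50% between 30.4 and 281 kb. In 136 pairs (34.5%) the marked interval between them was shorter than 50 kb, and in 56 (14.2%) it was shorter than 10 kb. The widest separation was 2195.5 kb, from 3R:19383385 to 3R:21578903, where 163 merged regions covered 50.8% of the sequence. Joined wherever less than 50 kb parted them, 228 stretches fell into 92 groups and 171 stood alone. Of the groups, 60 held 2 stretches, 26 held 3 and 6 held 4 or more.

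The longest groups were found both at the centromere side and far from it. After the group of 1387 kb on 3L came 7 stretches of 2L that spanned 1199 kb, 2L:21759789-22959098, with 90.2% of it in stretches and 3.04% and 2.89% covered by clusters of replicates 1 and 2. The third was the group of 606 kb on 3R, with 5.52% and 5.63% covered. On X, 2 stretches spanned 586 kb at X:21259670-21846055, with 2.10% and 2.50% covered. The fifth, 2L:11225881-11798373 with 4 stretches over 572 kb, lay in the middle of the arm, and 10.1% of it was covered in each replicate. The next 4 groups, of 475 to 571 kb, lay 5.93 to 24.1 Mb from the centromere-side end.

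In 44 pairs (11.2%) a single merged region parted the stretches. These islands had a median width of 2621.5 bases, from 1105 to 50048. Of the 44, 29 (65.9%) held clusters in both replicates, 5 (11.4%) in 1 replicate and 10 (22.7%) in neither. Among all 6833 clusters of the combined list on the large arms the shares were similar, at 65.7%, 13.9% and 20.4%. The 5 narrowest were 2L:13964983-13966087, 3R:22152675-22153798, 3R:2034072-2035260, 3L:12329695-12330968 and 3L:13794502-13795814. None of these 5 had a cluster in either replicate list, and their scores ranked between percentiles 0.417 and 29.2 of the combined list. The narrowest island with clusters in both replicates was 2R:74249-75891, whose 1643 bases were covered to 97.9% in replicate 1 and 83.1% in replicate 2, at percentile 0.724 of the combined list. The island 3L:23708069-23710414, with 2346 bases between stretches of 374 and 311 kb, was covered to 93.6% and 88.6%.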

How the data were processed

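H3K79me3 ChIP-seq of adult fly head nuclei was available as 3 lists of clusters: 1 for each ChIP sample and 1 for the set of replicates. The authors deposited a score with the borders of each cluster, and the file headers name FlyBase release 5 as the build. The submitters' processing notes name Bowtie 0.12.7 but not what it was used for. The sources used here do not give the caller, its threshold, the scale of the score or how the replicates were joined. Inputs have no list of their own in this work, and sequencing depth is unknown.

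Arm lengths came from the sequence-region headers. Clusters of all 3 lists were merged on the 5 large arms, and gaps of 50000 bases or more were kept. Cover, distances, bordering clusters and score percentiles within each list were computed with Python 3.11.15 and numpy 2.4.6 and drawn with matplotlib 3.10.9. Where the 2 replicate lists gave a value each, the text gives both values, their mean and SD, or all of these. No test was made, because the stretches were chosen on the same values. The merging and gap functions were checked on simulated data. Members, limits and descriptions were chosen with earlier results of these data known.

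Regions named are the 10 longest, the longest of each arm and beyond 10 Mb from the centromere side, 3 on each side of the limit, 3 nearest the centromere side, the 5 narrowest islands and the 5 longest groups. Others were chosen after their values were seen: the 4 further stretches of the longest group, the joined stretch on 3R, the widest separation, the islands of 1643 and 2346 bases and the 4 groups after the fifth. The share of each arm by setting was also added then. Alternatives were other list choices, each replicate left out, clusters at or above the median score, clusters of 2000 bases or more, bases in at least 2 lists, limits of 40, 75 and 100 kb, arm ends left out, and 1 or 4 Mb at the centromere side. Coordinates were not converted to release 6, so genes and sequence are not reported.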

Additional observations from a re-analysis of the deposited data

How the results depend on the processing

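The 399 stretches became 219 and 139 with limits of 75 and 100 kb. Other settings gave 397 to 522. The share of the arms in stretches, 33.6%, was 40.9% with replicate 1 alone, 40.0% with replicate 2 alone, 38.1% without the combined list, 38.2% with bases in at least 2 lists, 39.5% without clusters under 2000 bases, 48.9% with clusters at or above the median score, and 38.2%, 24.4% and 18.6% with limits of 40, 75 and 100 kb. The median length, 80.03 kb, was 81.8, 82.8 and 89.2 kb with replicate 2 alone, without narrow clusters and with the score limit, under which the longest stretch had 1212 kb in place of 505 kb, and 67.2, 111 and 130 kb with the length limits in the same order. The share of stretch length in the 2 Mb at the centromere side, 15.0%, was 13.0%, 13.6% and 13.9% with replicate 1 alone, replicate 2 alone and both without the combined list. It was 11.9% with the score limit, 13.7% without narrow clusters, 13.8% with bases in 2 lists, and 14.3%, 18.7% and 21.1% with the length limits. The 1 Mb and the 4 Mb at that side held 8.97% and 23.1%. Bordering clusters had a median width of 3184 bases beside stretches of 100 kb or more, and 3131 and 3221.5 bases in replicates 1 and 2 alone, against 3385 bases in the combined list. Their median score percentile was 51.2 and 51.5 in the replicates, against 55.1. The cover inside stretches found in the other replicate was 0.541% with the roles of the replicates exchanged and 1.54% with the score limit, against 0.865%. Leaving out replicate 1 or 2 while keeping the combined list left 399 stretches both times, a share of 33.6% of the arms, a median of 80.03 kb and 15.0% at the centromere side. The combined list was made from both replicates, so this leaves neither fully out. The cause of these changes was not tested, beyond the fewer clusters or longer limits that the settings impose. No paired analysis was possible because no result comes from a test. The unknown depth of the libraries limits what the absence of a cluster shows.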
